A study of Mus musculus with 10 samples.

Results

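The 95 genes described here encode subunits of the oxidative phosphorylation (OXPHOS) machinery. They were chosen by symbol from the 16771 genes in each table. The 13 on the mitochondrial genome have symbols starting mt-Nd, mt-Co, mt-Cyt or mt-Atp, and the 82 on the nuclear genome have symbols of the Nduf, Sdh, Uqcr, Cox and Atp5 families. By complex, 37 nuclear and 7 mitochondrial members belong to complex I, 4 and 0 to complex II, 8 and 1 to complex III, 16 and 3 to complex IV, and 17 and 2 to complex V. The symbol rule also took in Atp5s and Atp5sl, which are not subunits of ATP synthase, and it placed Ndufa4 with complex I although its protein is known as a subunit of complex IV.

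All 10 RNA libraries were from C57BL/6 mouse bone marrow, flushed from femurs and tibias, and formed 5 groups of 2. Haematopoietic stem and progenitor cells (HSPC) were what remained after magnetic depletion of cells with mature lineage markers, and are therefore a mixture of progenitor types. The donors were wild-type (WT) mice, Npm1flox-cA/+;Mx1-Cre+ mice (Npm1c), Flt3ITD/+ mice (Flt3-ITD) and Npm1flox-cA/+;Flt3ITD/+;Mx1-Cre+ mice (double mutant, DM). The fifth group was WT neutrophils, isolated with a magnetic kit. Mx1-Cre is driven by an interferon-inducible promoter. The Npm1 allele is a floxed one that yields a cytoplasmic mutant of the nucleolar protein NPM1, and the Flt3 allele is an internal tandem duplication that activates the receptor tyrosine kinase FLT3. The labels used here name neither the age of the mice nor how Cre was induced, and Mx1-Cre also acts outside blood cells.

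Oxidative phosphorylation makes ATP in the inner mitochondrial membrane. Complex I takes electrons from NADH and complex II from succinate, complex III passes them to cytochrome c, complex IV hands them to oxygen, and complex V, the ATP synthase, uses the proton gradient that this builds. The mitochondrial genome encodes core subunits of complexes I, III, IV and V, which are read from both strands as long precursors and cut apart, while complex II and every other subunit come from nuclear genes whose proteins are imported. Subunits from both genomes are assembled in the same complexes. Neutrophils are known to rely mainly on glycolysis and to hold few mitochondria.

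Values were deposited as RPKM, reads scaled to the length of the gene and the size of the library. Their smallest steps give back whole reads, and library totals of 40783015 to 57824373 reads. Listed genes held 73.9% to 74.2% of the reads of WT HSPC, 60.7% to 62.9% for Npm1c, 63.3% to 69.3% for Flt3-ITD, 66.9% to 67.3% for DM and 81.2% for neutrophils. The median gene also moved, by -0.26 (Npm1c), -0.14 (Flt3-ITD), -0.34 (DM) and -0.70 (neutrophils) on the log2 scale, each against WT HSPC. Summed neutrophil markers were 99644 and 99372 RPKM in the neutrophil libraries and 60.1 to 415 in HSPC, and no marker of either list was at 0 in all libraries. All 13 mitochondrial members and 77 of the 82 nuclear members had at least 1 RPKM in at least 2 HSPC libraries and entered the tests between HSPC groups. Those 77 were above 1 RPKM in all 8 HSPC libraries. Cox4i2, Cox6a2, Cox8b, Ndufa4l2 and Cox7a1 did not enter.

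The balance between the genomes differed between the groups. WT HSPC had 0.791% and 0.830% of all reads on the 13 mitochondrial genes, Npm1c HSPC 1.25% and 1.11%, Flt3-ITD HSPC 0.884% and 1.05%, DM HSPC 1.02% and 1.003%, and neutrophils 0.297% and 0.296%. On the 82 nuclear genes WT HSPC had 0.929% and 0.959%, Npm1c HSPC 0.790% and 0.825%, Flt3-ITD HSPC 0.882% and 0.820%, DM HSPC 0.606% and 0.600%, and neutrophils 0.316% and 0.315%. Npm1c HSPC thus stood above WT in mitochondrial reads and below it in nuclear reads, DM HSPC had the lowest nuclear share of the HSPC, and neutrophils were low in both.

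Dividing one by the other removes the library total. WT HSPC had 0.852 and 0.866 mitochondrial reads per nuclear OXPHOS read, Npm1c HSPC 1.58 and 1.34, Flt3-ITD HSPC 1.002 and 1.28, DM HSPC 1.68 and 1.67, and neutrophils 0.942 and 0.940. Both libraries of every other group lay above both WT HSPC libraries, and the DM libraries lay above all others. With 2 libraries a group, an exact permutation test of such a value cannot fall below 0.333, so no test was made. In bulk samples, fewer cells of a type and less RNA per cell cannot be told apart.

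**Figure D1:**
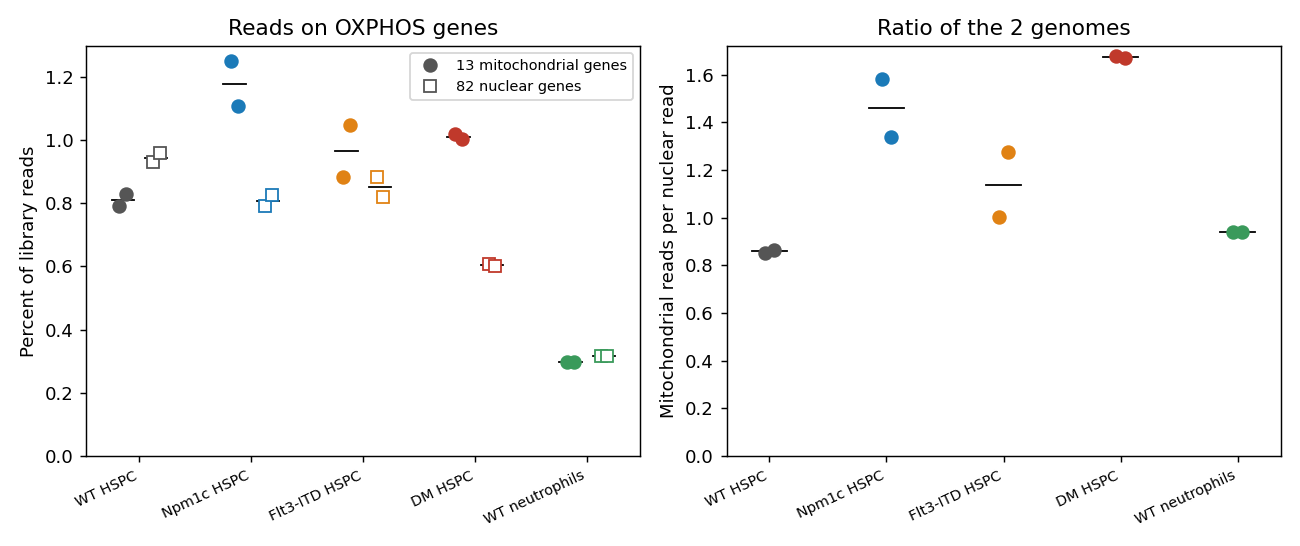
Left, percent of library reads on the 13 mitochondrial (filled circles) and 82 nuclear (open squares) OXPHOS genes; right, mitochondrial reads per nuclear OXPHOS read. Each point is 1 library and each bar the mean of 2; the ratio runs from 0.852 in a WT HSPC library to 1.68 in a DM library.

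Giving each gene equal weight changed the order. The measure was the mean log2(RPKM + 0.5) of the 13 mitochondrial genes minus that of the 78 nuclear genes that passed the level filter over all 10 libraries. WT HSPC stood at 1.83 ± 0.025, Npm1c at 2.62 ± 0.13, Flt3-ITD at 2.21 ± 0.25, DM at 2.4 ± 0.095 and neutrophils at 1.48 ± 0.045 (SD, n = 2). Relative to WT HSPC, Npm1c stood higher by 0.79, Flt3-ITD by 0.39 and DM by 0.57, and neutrophils were at -0.35. The Flt3-ITD value was 0.21 without its replicate 2 or 0.56 without its replicate 1. On this measure neutrophils lay below WT HSPC, not above, and DM lay below Npm1c (-0.22, or -0.13 without Npm1c replicate 1). The log2 ratio of summed RPKM instead put DM above Npm1c, by 0.044. Flt3-ITD and DM differed by 0.18, less than the combined spread of their replicates (SD 0.27).

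Levels of the 13 mitochondrial genes differed widely within a library. mt-Co1 (chromosome M, 5328 to 6872, GRCm38 with GENCODE M21), the catalytic core of complex IV, was the highest, at 2812 to 4255 RPKM over the HSPC libraries. Outside the block described next, mt-Nd1, mt-Nd2, mt-Nd5, mt-Nd6 and mt-Cytb lay between 190.2 and 1769 RPKM in HSPC. By contrast mt-Co2, mt-Atp8, mt-Atp6, mt-Co3, mt-Nd3 and mt-Nd4l lay between 1.37 and 47.3 RPKM, and together took 0.523% to 0.842% of the reads on the 13 genes. mt-Nd4l rested on 18 to 56 reads in the HSPC libraries and on 4 and 2 in neutrophils.

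Those 6 low genes are the 6 that lie wholly within a stretch of mitochondrial DNA, bases 6390 to 11042. It is marked out by near-identical annotated copies of single genes on chromosome 1 (24611535 to 24616197, minus strand). The stretch runs from the first to the last matched base of these copies, and was not aligned as a whole. No annotated copy was found for mt-Atp8, which lies inside it. The copies are annotated as pseudogenes, and 7 mitochondrial genes matched one at 99% identity or more. Over their aligned bases, mt-Co2 matched Gm28661, mt-Atp6 matched Gm10925, mt-Co3 matched Gm28437 and mt-Nd4l matched Gm10222 without a mismatch. mt-Nd3 differed from Gm28438 at 1 of 345 bases. mt-Co1 and mt-Nd4 lie partly in the stretch, over 31.3% and 63.6% of their length, and the other 5 genes lie outside it. None of these copies is listed in the tables, and the labels used here do not say how reads that map to several places were treated. The values of the genes inside are therefore uncertain, and the part of the copy in their levels was not tested. At 95% identity or more, 9 of the 13 genes had an annotated nuclear copy. mt-Co1 matched Gm13340 at 97.6% over 100% of its length. Outside the stretch, mt-Nd2 matched Gm13339 over 49.1% of its length and mt-Nd5 matched Gm4076 over 52.3%. Gm4076 is among the listed genes. The first 81 bases of mt-Nd3 (chrM:9459-9539, plus strand) and of its copy (chr1:24613039-24613119, minus strand) show how little separates the pair. The capital marks the mismatch, T3C counted from the first base of the gene.
mt-Nd3: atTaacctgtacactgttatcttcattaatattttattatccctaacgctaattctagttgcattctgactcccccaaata
Gm28438: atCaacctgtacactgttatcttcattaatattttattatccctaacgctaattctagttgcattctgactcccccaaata

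**Figure D2:**
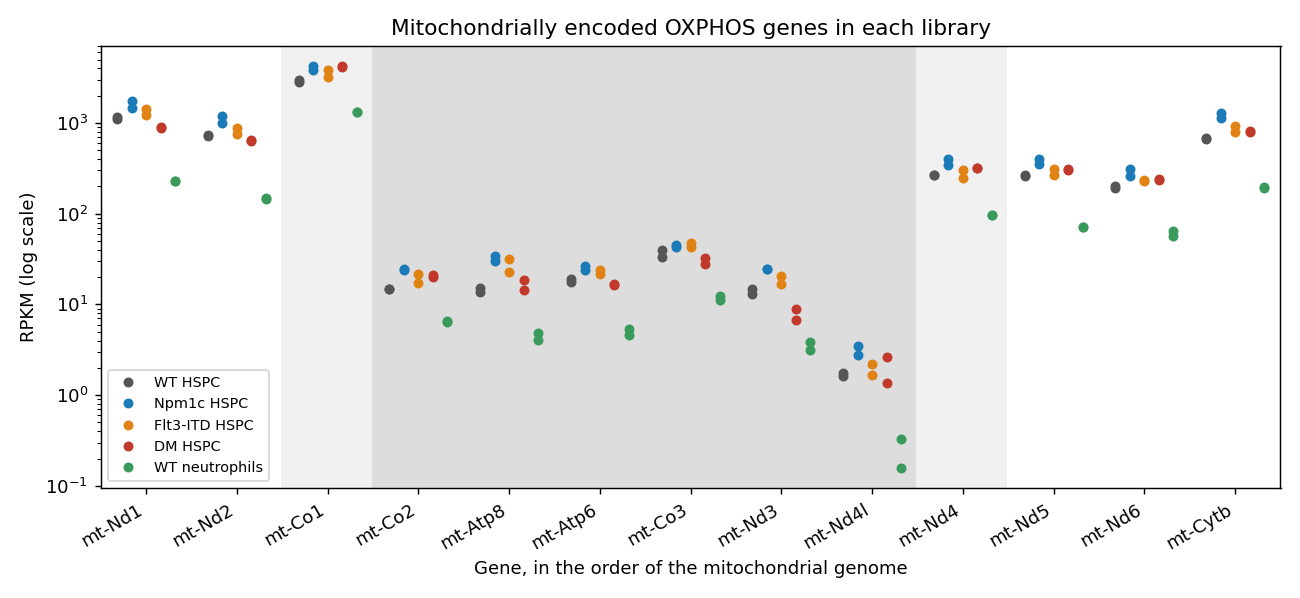
RPKM (log axis) of the 13 mitochondrial genes in genome order, 2 libraries per group. Dark grey marks the 6 genes inside the stretch marked out by annotated copies on chromosome 1 and light grey the 2 partly inside. The 6 sit between 1.37 and 47.3 RPKM in HSPC, the 5 on white between 190.2 and 1769.

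In Npm1c HSPC, transcripts of the mitochondrial genome rose. Of the 13, 12 rose and 0 fell, beside 2.49% of all tested genes that rose and 58.1% that fell. mt-Cytb, the complex III subunit, stood at 668 and 682 RPKM in WT and at 1292 and 1138 in Npm1c, a rise of 0.84 ± 0.091 (log2 change ± SE, limma, adjusted p = 0.000857). The complex I subunit gene mt-Nd2 went from 716 and 740 to 1186 and 993 RPKM (0.58 ± 0.11, adjusted p = 0.0046). mt-Nd1, mt-Nd5, mt-Nd4 and mt-Nd6, also of complex I, rose by 0.46 to 0.54 and mt-Co1 by 0.48. In all of these genes both Npm1c libraries lay above both WT libraries, as in 6.77% of all tested genes. mt-Nd6 is the only member encoded on the opposite strand, and its rise of 0.54 ± 0.081 was of the size of the others.

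Within the copied stretch mt-Atp8 rose by 1.14 ± 0.18, mt-Nd3 by 0.79, mt-Nd4l by 0.72, mt-Co2 by 0.70 and mt-Atp6 by 0.46. mt-Co3, at 33.0 and 39.5 RPKM in WT and 44.8 and 42.9 in Npm1c, did not pass (0.28 ± 0.11, adjusted p = 0.0657). The mt-Nd4l call was lost without any 1 of the 4 libraries, and the mt-Nd4 call without Npm1c replicate 1. Scaled by the median of ratios 13 of 13 rose (18.2% of all genes rose and 20.1% fell), as they did with the nuclear OXPHOS genes set level (8.29% and 32.9%).

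In Flt3-ITD HSPC, 4 of the 13 rose and 0 fell, beside 1.86% and 31.3% of all tested genes. They were mt-Atp8 (0.88 ± 0.18), mt-Co2 (0.37), mt-Cytb (0.36 ± 0.091) and mt-Atp6 (0.31). All but mt-Cytb lie within the copied stretch, where values are uncertain. mt-Cytb stood at 803 and 933 RPKM, both above WT, as in 7.87% of all tested genes. The 2 Flt3-ITD libraries differed among themselves, with mt-Co1 at 3195 and 3851 RPKM, and mt-Nd4 at 248.6 and 301 against 269 in both WT libraries. Without either WT library no mitochondrial gene was called, and without Flt3-ITD replicate 1 there were 9.

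In DM HSPC the mitochondrial genes split. Against WT, mt-Co1, mt-Co2, mt-Nd6 and mt-Cytb rose, and mt-Nd1 and mt-Nd3 fell, while 23.9% of all tested genes rose and 58.9% fell. Of these, mt-Co2 and mt-Nd3 lie within the copied stretch. mt-Co1 stood at 4227 and 4174 RPKM against 2812 and 2997 in WT (0.53 ± 0.10, adjusted p = 0.00185). mt-Nd1 stood at 908 and 879 against 1111 and 1152 (-0.34 ± 0.10, adjusted p = 0.016), a direction that turned under the median of ratios (0.0085). mt-Nd3 stood at 6.74 and 8.93 RPKM against 13.1 and 14.9 (-0.81 ± 0.14, adjusted p = 0.00125), on 104 and 150 reads. The groups did not overlap in these 3 genes. Of all tested genes, 29.1% had both DM libraries above both WT libraries and 66.1% had both below. The calls of mt-Nd1, mt-Nd6 (0.28) and mt-Cytb (0.26) were each lost without 1 library or another: mt-Nd1 without DM or WT replicate 2, mt-Nd6 without either DM library or WT replicate 1, and mt-Cytb without any 1 of the 4. Scaled by the median of ratios 7 rose and 1 fell (37.3% and 40.3% of all genes), and with the nuclear OXPHOS genes set level 9 rose and 0 fell (47.1% and 28.1%).

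In DM against Npm1c, 9 of 13 fell and 0 rose (43% and 34.4% of all tested genes), with mt-Nd1 at -0.86 ± 0.10, mt-Nd2 at -0.77 ± 0.11 and mt-Nd3 at -1.60 ± 0.14. mt-Co1 did not pass in that comparison (0.05 ± 0.10), with DM at 4227 and 4174 RPKM and Npm1c at 4255 and 3869. Against Flt3-ITD, 6 fell and 1 rose (48.8% and 28.6% of all tested genes). The fallers were mt-Nd1 (-0.56), mt-Nd2 (-0.36), mt-Nd3 (-1.20), mt-Atp8 (-0.69), mt-Atp6 (-0.45) and mt-Co3 (-0.57). All but mt-Nd1 and mt-Nd2 lie within the copied stretch. The rise was mt-Co1 (0.26 ± 0.10, adjusted p = 0.0476), which was lost without either DM library or Flt3-ITD replicate 1. The falls of mt-Nd5 (-0.29) and mt-Nd6 (-0.26) against Npm1c were lost without either DM library or Npm1c replicate 1, those against Flt3-ITD of mt-Nd2 without either DM library or Flt3-ITD replicate 2, and of mt-Atp8 without DM replicate 1. Without DM replicate 1, 4 genes were called against Flt3-ITD in place of 7. Scaled by the median of ratios, 7 fell and 0 rose against Npm1c (41.8% and 38.7% of all genes), and 5 fell and 2 rose against Flt3-ITD (40.4% and 37.9%). These comparisons share the DM libraries with each other and with the one against WT.

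The make-up of the mitochondrial reads does not depend on the scaling of the libraries. Of the reads on the 13 genes, mt-Co1 took 54.9% and 55.7% (WT HSPC), 52.6% and 54.0% (Npm1c), 55.8% and 56.8% (Flt3-ITD), 64.1% and 64.3% (DM), and 69.4% and 69.2% (neutrophils). mt-Nd1 took 13.4% and 13.3% (WT HSPC), 13.5% and 12.8% (Npm1c), 13.3% and 12.9% (Flt3-ITD), 8.52% and 8.38% (DM), and 7.38% and 7.50% (neutrophils). mt-Nd2 took 9.38% and 9.25% (WT HSPC), 6.56% and 6.49% (DM), and 5.19% and 5.05% (neutrophils). For each of these genes DM lay between neutrophils and the other HSPC, with no overlap. The share of mt-Nd6 was 1.25% and 1.27% (WT HSPC) and 1.21% and 1.24% (DM), so that this gene, whose RPKM rose in DM, did not take a larger share. mt-Cytb, whose RPKM also rose in DM, stood at 11.8% in both Npm1c libraries against 9.64% and 9.40% in WT and 9.24% and 9.08% in DM. The share of mt-Nd4 was 3.87% to 4.68% over all libraries.

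**Figure D3:**
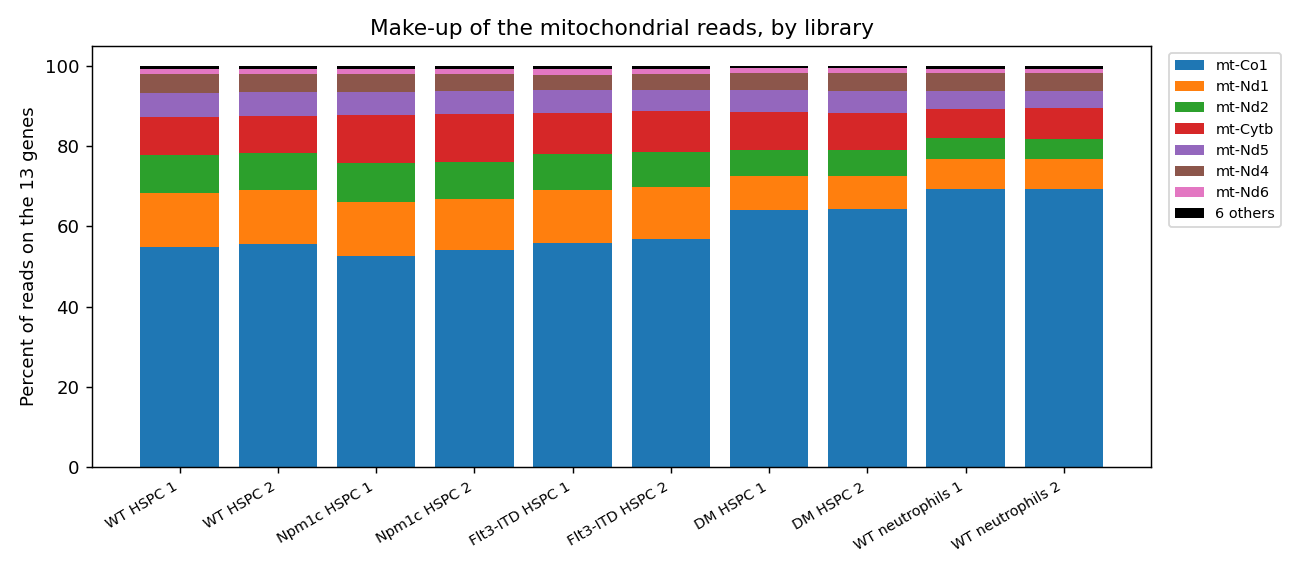
Stacked bars of the percent of reads on the 13 mitochondrial genes that each gene took, 1 bar per library; black is the sum of the 6 genes inside the copied stretch. The mt-Co1 part is 52.6% to 56.8% in WT and single mutant HSPC, 64.1% and 64.3% in DM and 69.4% and 69.2% in neutrophils.

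In WT neutrophils all 13 mitochondrial genes fell against WT HSPC, where 62.8% of all tested genes fell and 28.4% rose. mt-Nd1 (230 and 232 RPKM) fell by 2.29 ± 0.094 and mt-Nd2 (149 and 144) by 2.31 ± 0.10. mt-Co1 (1336 and 1326 RPKM) fell by 1.12 ± 0.094 and mt-Co2 by 1.13 ± 0.098, which were the smallest falls of the 13. Scaled by the median of ratios 11 fell and 0 rose (45.9% and 44.6% of all genes), with mt-Co1 at -0.27 and mt-Co2 at -0.31 no longer passing.

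**Figure D4:**
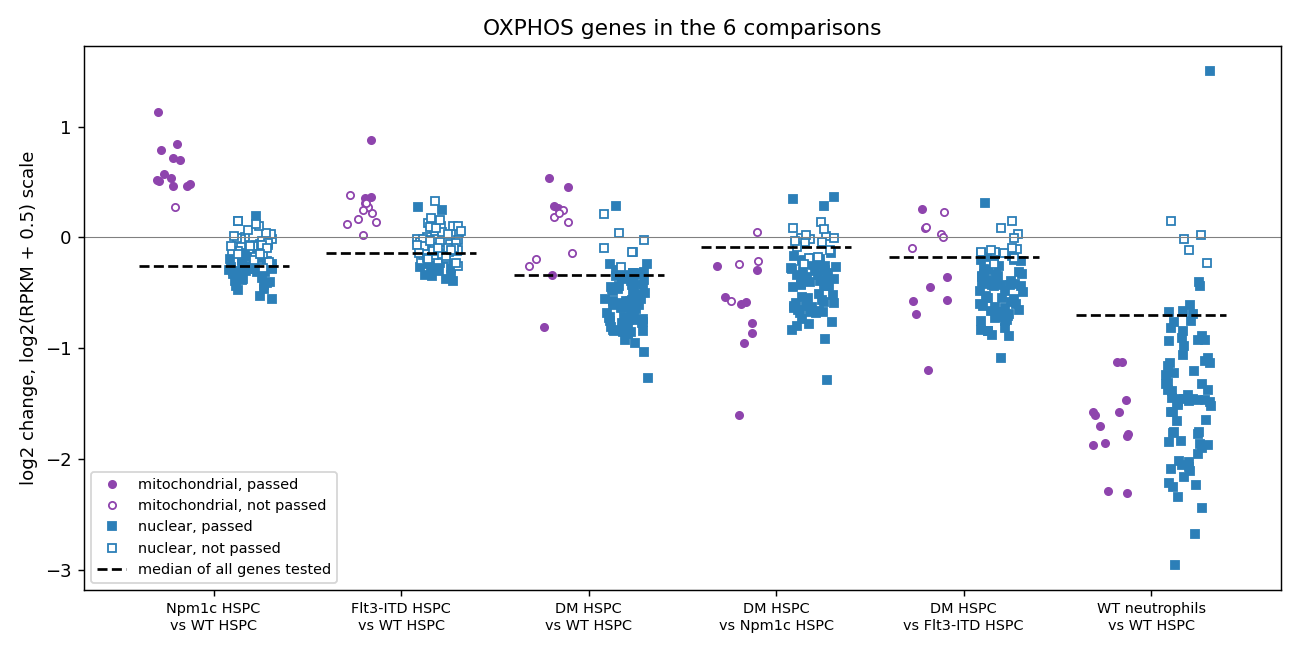
Log2 change of each tested OXPHOS gene in the 6 comparisons, mitochondrial genes as circles and nuclear genes as squares, filled where adjusted p was under 0.05. Dashed lines are the medians of all genes tested (-0.26, -0.14, -0.34, -0.09, -0.18 and -0.70 from left to right); in the Npm1c comparison the mitochondrial genes lie at 0.28 to 1.14 and the nuclear ones at -0.56 to 0.19.

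The median of the nuclear OXPHOS genes lay slightly above that of all genes in the single mutants. In Npm1c, 39 of 77 fell and 1 rose, with a median of -0.18 beside -0.26 for all genes, and 58.1% of all genes fell. Under the median of ratios the direction turned, and 27 rose and 3 fell (18.2% and 20.1% of all genes). In Flt3-ITD, 16 fell and 2 rose (median -0.11), beside 31.3% and 1.86% of all genes (median -0.14), and under the median of ratios 1 fell and 17 rose (9.65% and 8.24% of all genes). Leaving out 1 library brought the 40 calls in Npm1c to 19 and 23 (without Npm1c replicate 1 or 2) and to 26 and 15 (without WT replicate 1 or 2). The 18 calls in Flt3-ITD became 1 without either WT library and 44 without Flt3-ITD replicate 1.

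Some nuclear subunits fell in Npm1c by more than the median gene. Uqcr10, a small complex III subunit, went from 42.1 and 45.1 RPKM in WT to 28.8 and 30.2 (-0.56 ± 0.056, adjusted p = 0.000791). Ndufb3, an accessory subunit of complex I, went from 57.4 and 58.7 to 39.2 and 40.8 (-0.53 ± 0.065, adjusted p = 0.00119). Sdha, the flavoprotein of complex II that oxidises succinate, went from 50.4 and 47.8 to 33.8 and 36.6 (-0.47 ± 0.068, adjusted p = 0.00191). These 3 still passed under the median of ratios, while Cox8a (-0.44) and Atp5j2 (-0.47), small subunits of complexes IV and V, did not. The Cox8a call was also lost without Npm1c or WT replicate 2. In Flt3-ITD the largest falls by complex were Ndufs1 (-0.37), the largest subunit of complex I, Sdha (-0.40), the complex III core protein gene Uqcrc1 (-0.30), Cox4i1 (-0.23) and Atp5j2 (-0.34), of which Sdha alone passed under the median of ratios. Without WT replicate 1 none of these 5 was called, and without WT replicate 2 Sdha alone. Ndufc1, a small complex I subunit, rose in both, by 0.19 ± 0.072 in Npm1c and 0.27 ± 0.072 in Flt3-ITD. The rise in Npm1c (adjusted p = 0.0497) was lost without any 1 of the 4 libraries and the rise in Flt3-ITD without either WT library. The other riser in Flt3-ITD was Ndufb4, also of complex I (0.25, adjusted p = 0.0283), named after its value was seen.

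DM HSPC had lower nuclear OXPHOS transcripts in all 5 complexes. Against WT, 69 of 77 fell and 1 rose, with a median of -0.56 beside -0.34 for all genes, of which 58.9% fell and 23.9% rose. Under the median of ratios 45 fell and 6 rose (40.3% and 37.3% of all genes), with a median of -0.22. By complex, 31 of 36 fell in complex I (median -0.57), 4 of 4 in complex II (-0.79), 7 of 8 in complex III (-0.60), 11 of 12 in complex IV (-0.51) and 16 of 17 in complex V (-0.44).

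Of the members that fell most in each complex, Ndufs1 (chromosome 1, 63143596 to 63176833), the iron-sulphur subunit of complex I, went from 10.5 and 10.4 RPKM in WT to 4.85 and 4.88 (-1.03 ± 0.065, adjusted p = 6.48e-06). Sdhd, a membrane anchor of complex II, stood at 139.7 and 145 RPKM (WT), 132 and 142 (Npm1c), 141 and 142 (Flt3-ITD), and 80.6 and 76.0 (DM) (-0.86 ± 0.057, adjusted p = 8.3e-06). Atp5g1 (chromosome 11, 96068852 to 96075670), one of the genes for the c-ring of ATP synthase, stood at 17.6 to 20 RPKM in WT and single mutants and at 10.2 and 9.89 in DM (-0.92 ± 0.057, adjusted p = 6e-06). For both genes the DM libraries lay below all 6 other HSPC libraries, and neither passed the test in Npm1c or Flt3-ITD against WT. Of all tested genes, both DM libraries lay below both WT libraries in 66.1%, below both Npm1c libraries in 51.1% and below both Flt3-ITD libraries in 54.9%.

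Uqcr10 fell by 0.85 ± 0.056 in DM. Cox6b2 (chromosome 7, 4751792 to 4753094), known as the testis isoform of a complex IV subunit, went from 4.73 and 5.49 RPKM in WT to 1.86 and 1.77, the largest fall of all members (-1.27 ± 0.074, adjusted p = 4.67e-06). Ndufb9 fell by 0.77, Atp5b, the catalytic subunit of ATP synthase, by 0.85, Cox6b1 by 0.49 and Uqcrb by 0.24. These were named for the highest deposited RPKM in their complexes, an order that the gene lengths described below can change. The Uqcrb value turned to 0.11 under the median of ratios, and its call was lost without DM or WT replicate 2.

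A few nuclear members went against the rest. Ndufa6 (chromosome 15, 82350140 to 82354322), an accessory subunit of complex I, stood at 62.6 and 67.3 RPKM (WT), 62.5 and 61.3 (Npm1c), 78.9 and 64.3 (Flt3-ITD), and 78.9 in both DM libraries. It rose in DM against WT by 0.28 ± 0.093 (adjusted p = 0.0258) and against Npm1c by 0.35 ± 0.093 (adjusted p = 0.0112). Both calls were lost without either DM library, the first also without WT replicate 1 and the second without Npm1c replicate 2. Cox7a2l, which encodes a factor in supercomplexes of complexes III and IV, stood at 48.6 and 52.4 in WT, 44.8 and 46.2 in Npm1c and 59.1 and 58.0 in DM. It rose against Npm1c by 0.36 ± 0.086 (adjusted p = 0.00663) and against Flt3-ITD by 0.31 ± 0.086 (adjusted p = 0.0128), and did not pass against WT (0.21 ± 0.086, adjusted p = 0.052). The call against Flt3-ITD was lost without either DM library. Ndufa13, also in complex I, rose against Npm1c (0.28 ± 0.084), and was named after its value was seen.

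Against the single mutants the DM falls were of similar breadth. Against Npm1c 58 of 77 nuclear members fell and 3 rose (43% and 34.4% of all genes), and against Flt3-ITD 63 fell and 1 rose (48.8% and 28.6%). Scaled by the median of ratios, 56 fell and 4 rose against Npm1c (41.8% and 38.7% of all genes). On that scale 55 fell and 4 rose against Flt3-ITD (40.4% and 37.9%). Cox6b2 (-1.29 and -1.09), Atp5g1 (-0.91 and -0.83), Sdhd (-0.80 and -0.85) and Ndufc2 (-0.83 and -0.89), of the membrane arm of complex I, led these falls in their complexes. In complex III Uqcr11 (-0.68) led against Npm1c and Uqcr10 (-0.76) against Flt3-ITD.

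The double mutant did not stand where the single changes add up for much of the set. The interaction term, DM minus both single mutants plus WT on the log2 scale, was below 0 by its test for 10 of 13 mitochondrial and 37 of 77 nuclear members, and above 0 for 0 and 4. Of all tested genes 27.6% were below and 39.2% above. Scaled by the median of ratios it was below 0 for 10 and 55 members and above for 0 and 2 (36.3% and 36.6% of all genes). mt-Nd1 illustrates the term, with WT at 1111 and 1152 RPKM, both single mutants above that and DM at 908 and 879 (-1.08 ± 0.14, adjusted p = 0.000518). Ndufc1 did so among nuclear members, at 6.13 and 6.15 RPKM (WT), 6.95 and 7.27 (Npm1c), 8.07 and 6.999 (Flt3-ITD), and 3.91 and 4.04 (DM) (-1.04 ± 0.10, adjusted p = 0.000123).

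**Figure D5:**
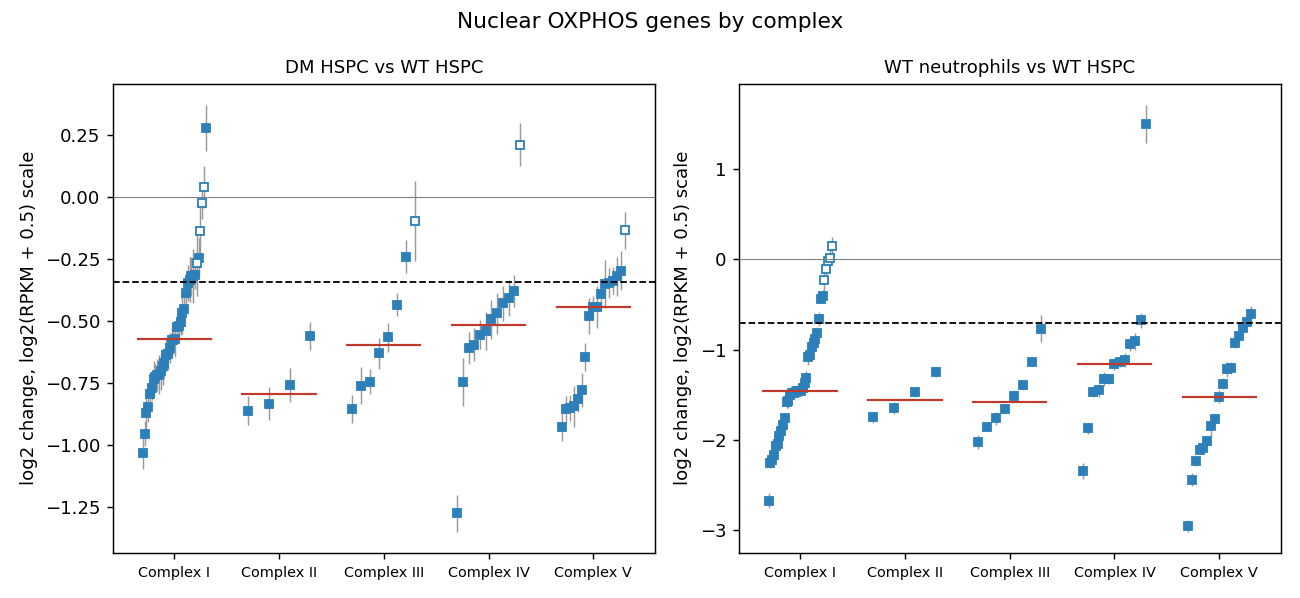
Log2 change ± SE of each tested nuclear OXPHOS gene by complex, in DM HSPC (left) and WT neutrophils (right) against WT HSPC, ordered within each complex and filled where adjusted p was under 0.05. Red bars are the complex medians (-0.57, -0.79, -0.60, -0.51 and -0.44 at left) and dashed lines the medians of all genes (-0.34 and -0.70).

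Neutrophils had lower transcripts for nearly every nuclear subunit. Of the 77 members tested also between HSPC groups, 72 fell and 0 rose, beside 62.8% and 28.4% of all genes. The median over the 78 tested here was -1.45, beside -0.70 for all genes. Under the median of ratios 58 of these 78 fell and 11 rose (45.9% and 44.6% of all genes). Atp5g1 fell by 2.96 ± 0.062 to 2.20 and 1.97 RPKM, Ndufa12, which is added late in complex I assembly, by 2.68 ± 0.079 to 3.40 and 3.01, Cox6b2 by 2.34, Uqcr11 by 2.03 and Sdhc by 1.75. The 5 that did not pass, all of complex I, were Ndufa1, Ndufa3, Ndufa13, Ndufb7 and Ndufv3 (-0.23 to 0.15), and were named after their values were seen. The 78th was Cox7a1, known as the heart and muscle isoform of a complex IV subunit, at 2.32 and 3.04 RPKM in neutrophils and 0.528 to 1.5 in HSPC. It reached the minimum level in 1 of 8 HSPC libraries and entered the test only through the neutrophils, so its values are given as a description. Summed muscle markers were 0.150 to 0.530 RPKM in all libraries, and lower in neutrophils (0.208 and 0.150) than in WT HSPC (0.493 and 0.514).

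For 4 subunits with a ubiquitous and a tissue-restricted isoform, the second stayed under 1 RPKM. Cox4i1 stood at 56.2 and 57.5 RPKM in WT HSPC and Cox4i2 at 0.137 and 0.215. Cox6a1 stood at 87.0 and 97.9, and the muscle isoform Cox6a2 at 0.828 and 0.819. Cox8a stood at 259 and 273, and Cox8b at 0.251 and 0.336. Ndufa4 stood at 27.8 and 28.5, and Ndufa4l2 at 0.0945 and 0.0724. In no library did Cox4i2, Cox6a2, Cox8b or Ndufa4l2 reach 1 RPKM. Cox6b2 and Cox7a1, described above, did reach it in some or all HSPC libraries. In DM, Cox4i1 (-0.38), Cox6a1 (-0.47), Cox6b1 (-0.49), Cox7a2 (-0.54), Cox7b (-0.61) and Cox8a (-0.74) all fell against WT. Under the median of ratios Cox4i1 (-0.03) and Cox6a1 (-0.12) no longer passed.

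The 3 genes for the c-ring protein of ATP synthase, which encode the same mature protein, changed unequally. Against WT, Atp5g1 fell by 0.92, Atp5g3 by 0.64 and Atp5g2 by 0.48 in DM. The Atp5g2 call was lost under the median of ratios (-0.13). In neutrophils they fell by 2.96, 2.02 and 2.44. In Npm1c only Atp5g2 passed, at 33.1 and 33.8 RPKM against 38.9 and 42.7 in WT (-0.28 ± 0.073, adjusted p = 0.0149), while Atp5g1 (-0.01) and Atp5g3 (-0.06) did not. The differences between these genes were not tested.

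Deposited RPKM cannot be set side by side between genes with different numbers of transcripts. For 51 of the 82 nuclear and all 13 mitochondrial members the length behind the RPKM equals the sum of end minus start over every exon line of every GENCODE M21 transcript, so an exon shared by several transcripts counts repeatedly. Over all 82 nuclear members the length behind the RPKM was 1.59 times the merged exon length at the median. It ran from 0.08 to 3.82 times, so for some members it was shorter than the merged exons. For members without a match to the exon lines, the length was taken as the smallest that gave whole reads. Recomputed with each exon base counted once for the 51 members, the median nuclear level in WT HSPC was 49.3 RPKM (0.324 to 372), against 28.1 as deposited. The 5 mitochondrial genes outside the copied stretch had a median of 674 (196 to 1130) on the same scale. In DM those medians were 34.6 and 635, and in neutrophils 17.0 and 146. Atp5b (chromosome 10, 128083273 to 128090391) was the highest of the 51 in neutrophils, at 84.1 RPKM on this scale, and stood at 361 in WT HSPC. The length is the same for a gene in every library, but because 0.5 is added to the RPKM a longer length shrinks the change of low genes. Cox6b2 in DM against WT, for example, was at -1.27 with 0.5 added, -1.44 with 0.1 and -1.11 with 1.

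NRF1 is a transcription factor known for activating nuclear genes of the respiratory chain, and the letters it binds were searched in the members' promoters. RefSeq promoters (GRCm38.p6, 250 bases before to 50 after each start) were found for 68 of the 82 members. The letters GCGCANGCG on either strand were in 28.4% of 74 member promoters and in 6.25% of all 32851 promoters. These letters and those of YY1 were shortened to 9 after a first search with longer forms. Searched the same way, ETS letters (CCGGAAGT) were in 6.8% and 3.89%, YY1 letters (AAGATGGCG) in 12.2% and 1.4%, and ERR letters (TCAAGGTCA) in 2.7% and 0.42%. Matches of one motif could overlap those of another. To show how the letters sit, the 120 bases before the start follow for 4 members, 5′ to 3′ on the gene's strand, with NRF1 letters in capitals. Sdha holds 3 matches, 98, 55 and 10 bases before the start, Ndufb4 holds 2, Sdhd holds 1, and Atp5g2 holds an overlapping pair on opposite strands. They lie on the minus strand at chr13:74350241-74350360 (Sdha), chr9:50603850-50603969 (Sdhd), chr16:37654369-37654488 (Ndufb4) and chr15:102671048-102671167 (Atp5g2).
Sdha: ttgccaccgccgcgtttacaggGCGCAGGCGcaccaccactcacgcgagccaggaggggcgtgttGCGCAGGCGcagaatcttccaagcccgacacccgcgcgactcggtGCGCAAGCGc
Sdhd: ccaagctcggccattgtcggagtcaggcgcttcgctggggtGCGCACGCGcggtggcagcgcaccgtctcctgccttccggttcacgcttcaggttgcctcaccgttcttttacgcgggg
Ndufb4: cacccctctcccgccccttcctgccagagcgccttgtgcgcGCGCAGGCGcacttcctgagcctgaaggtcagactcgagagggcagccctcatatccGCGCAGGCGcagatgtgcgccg
Atp5g2: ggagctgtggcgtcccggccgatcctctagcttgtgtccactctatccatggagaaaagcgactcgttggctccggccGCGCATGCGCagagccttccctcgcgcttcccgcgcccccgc

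In DM against WT, 19 of 20 tested members with the NRF1 letters fell (median -0.54) and 40 of 46 without them (median -0.56). In Npm1c 8 of 20 and 26 of 46 fell (medians -0.13 and -0.20), and in neutrophils 20 of 20 and 41 of 47 (-1.47 and -1.43). Of all tested genes 58.9% fell in DM, 58.1% in Npm1c and 62.8% in neutrophils. The difference between the members with and without the letters was not tested, and a match in letters is not a bound site. Among known regulators of nuclear OXPHOS genes, 9 of 10 tested fell in DM against WT and 1 rose, beside 58.9% and 23.9% of all genes. Hcfc1, a transcriptional cofactor, fell by 0.89, and Gabpa, an ETS factor, by 0.68, while Esrra, the oestrogen-related receptor alpha, rose by 0.27 (adjusted p = 0.0104). Against Npm1c, Myc fell by 0.99 in DM, and against WT it rose by 0.31 in Npm1c (adjusted p = 0.014).

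Genes that serve the mitochondrial genome fell in DM with the nuclear subunits. Of 32 genes for mitochondrial transcription, RNA processing and replication, 30 fell in DM against WT and 1 rose (median -0.59), beside 58.9% of all tested genes that fell and 23.9% that rose. Lrpprc, which stabilises mitochondrial mRNA, went from a mean of 14.5 to 5.68 RPKM (-1.28 ± 0.046, adjusted p = 6e-07), and Peo1, the mitochondrial helicase, from 9.93 to 5.05 (-0.91). Polg2, an accessory subunit of the mitochondrial DNA polymerase, rose from 0.612 to 1.18 (0.59 ± 0.072). In Npm1c, where mitochondrial transcripts rose, 14 of these 32 genes fell and 2 rose, beside 58.1% and 2.49% of all genes. The risers were Tfb2m, a mitochondrial transcription factor (0.24), and Slirp, the partner of Lrpprc (0.19). In neutrophils 28 fell and 1 rose, beside 62.8% and 28.4% of all genes, with Lrpprc at 1.72 RPKM (-2.76).

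Other mitochondrial lists followed the nuclear subunits. In DM against WT, 73 of 76 mitochondrial ribosomal protein genes fell and 0 rose (median -0.61), 16 of 16 genes of the TCA cycle and pyruvate dehydrogenase fell (-0.64), and 34 of 42 OXPHOS assembly factors fell and 0 rose (-0.46). Of all tested genes 58.9% fell and 23.9% rose in that comparison. Dlat, of the pyruvate dehydrogenase complex, fell from 12.96 to 5.40 RPKM, Mrpl36 from 56.5 to 26.0 and the complex I assembly factor Ndufaf4 from 5.53 to 2.46. Among 14 electron and metabolite carriers 10 fell and 1 rose, beside the same 58.9% and 23.9% of all genes. The rise was Ucp2, an uncoupling protein of the inner membrane, from 35.5 RPKM in WT and 22.1 in Npm1c to 62.1 in DM (0.80 ± 0.076 against WT, adjusted p = 5.07e-05). Coq9, needed to make the electron carrier ubiquinone, fell by 0.96 and Atpif1, an inhibitor of ATP synthase, by 0.81. In neutrophils, 75 of 76 ribosomal protein genes fell and Mrpl33 rose (1.19), 16 of 16 TCA cycle genes fell, and 39 of 42 assembly factors fell and 2 rose, Coa4 (1.07) and Pet100 (0.77). There 62.8% of all tested genes fell and 28.4% rose. Of 76 mitochondrial ribosomal protein genes in Npm1c, 29 fell and 0 rose (median -0.14), beside 58.1% and 2.49% of all genes (median -0.26).

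Transcripts of cell type markers and of G2 and mitosis genes differed between the groups, while cell fractions were not measured here. Of 18 genes of G2 and mitosis, 18 fell in DM, 18 in Npm1c, 16 in Flt3-ITD and 18 in neutrophils, each against WT HSPC, beside 58.9%, 58.1%, 31.3% and 62.8% of all genes. Summed HSPC markers were 111 and 110.1 RPKM (WT), 89.3 and 89.0 (Npm1c), 110.3 and 82.1 (Flt3-ITD), and 27.9 and 28.4 (DM). Summed monocyte and macrophage markers were 132.8 and 132.5 (WT), 67.1 and 64.1 (Npm1c), 204 and 122 (Flt3-ITD), and 679 and 675 (DM). Erythroid markers were 637 and 671 (WT), 419 and 677 (Npm1c), 452 and 619 (Flt3-ITD), and 1073 and 1052 (DM). T and NK cell, B cell, and stromal and endothelial markers summed to 4.33 to 70.3 RPKM over the HSPC libraries. Neutrophil markers reached 415 in Npm1c replicate 2, against 89.9 in replicate 1, and 304 and 262 in Flt3-ITD, against 78.9 and 60.1 in WT and 108 and 92.8 in DM. All 10 HSPC, 12 neutrophil, 10 erythroid and 8 monocyte markers were above 0 in some HSPC library. Their part in the changes of the OXPHOS genes was not tested.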

How the data were processed

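Total RNA went through rRNA depletion and a directional library kit, per the labels' protocols. The authors deposited 1 table of RPKM per library. Per the submitters' processing notes the build was mm10 and the tools were STAR 2.4.0, HTSeq and DiffBind. The annotation, strand use in counting and multi-mapping rules are not stated there. The 13 mitochondrial genes include overlapping neighbours (mt-Atp8 and mt-Atp6, mt-Nd4l and mt-Nd4, and mt-Nd5 and mt-Nd6 on opposite strands), whose reads may be shared.

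From the deposited RPKM, values were set to log2(RPKM + 0.5) and tested by limma 3.58.1 (R 4.3.3), variance trend on, with Benjamini-Hochberg adjustment at 0.05, over genes that reached 1 RPKM in 2 or more of the libraries fitted (9702 genes in 8 HSPC libraries, 10174 in all 10 for neutrophils). Fold changes on this scale understate low genes. Replicates were biological replicates, per the submitters' design text. The p-values rest on a spread pooled over all groups fitted and moderated across genes, not on that of the 2 groups compared alone. Whole reads, recovered for 99.85% of genes above 0 in at least 2 libraries (tolerance 0.02 reads), gave the read shares. Copies were sought with blastn 2.17.0 among GENCODE M21 transcripts, at no less than 95% identity over 100 bases. Such an annotated copy was found for 35 of the 82 nuclear members and 9 of the 13 mitochondrial members, so that their reads may be shared too. Named genes were all 13 mitochondrial genes, per comparison and complex the largest passing rise and fall, per complex the highest deposited nuclear RPKM, the isoform sets, and for other lists up to 2 genes per direction. Members and lists were chosen with earlier results of these data known. Alternatives were pseudocounts of 0.1 and 1, no filter, scaling by the median of ratios, by listed nuclear genes or by the nuclear OXPHOS genes, a replicate block and leaving out each library, and, chosen after seeing the data, voom on recovered reads and the 5 mitochondrial genes outside the copied stretch. The NRF1 and YY1 letters were shortened after a first search. The main fit was also run on simulated libraries with known changes and noise of the same size in every library. That setting lacks the scale shifts and unequal replicate spread of the real groups, so it does not test the fit under them. Python 3.11.15, NumPy 2.4.6, pandas 2.3.3 and matplotlib 3.10.9 were used.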

Additional observations from a re-analysis of the deposited data

Results flagged for a closer look

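The change from Flt3-ITD differed between Npm1c and WT backgrounds for 27 of the named members, by the interaction term of the limma fit (DM minus both single mutants plus WT, adjusted p under 0.05). Over all OXPHOS genes it was lower for 10 of 13 mitochondrial and 37 of 77 nuclear members and higher for 0 and 4, beside 27.6% and 39.2% of all genes tested. A negative value means that DM lay below the sum of both single changes on the log2 scale.

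Among mitochondrial genes the interaction was -1.99 for mt-Nd3, -1.83 for mt-Atp8, -1.08 for mt-Nd1, -0.94 for mt-Cytb, -0.93 for mt-Nd2, -0.91 for mt-Atp6, -0.85 for mt-Co3, -0.61 for mt-Co2, -0.51 for mt-Nd6 and -0.42 for mt-Nd5. mt-Co1 (-0.22), mt-Nd4 (-0.24) and mt-Nd4l (-0.72) did not pass.

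Among nuclear members it was -1.04 for Ndufc1, -1.01 for Ndufc2, -0.72 for Ndufa12, -0.71 for Ndufb9, -0.64 for Ndufa4 and -0.26 for Ndufs1 in complex I. It was -0.79 for Sdhd and -0.43 for Sdhc in complex II, and -0.62 for Uqcr11 and -0.38 for Uqcrb in complex III. In complex IV it was -1.10 for Cox6b2, -0.64 for Cox7b and 0.46 for Cox7a2l, and in complex V -0.82 for Atp5g1, -0.49 for Atp5g3, -0.25 for Atp5b and 0.36 for Atp5j2.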

How the results depend on the processing

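Of 204 recomputations of the 6 mitochondrial counts, 6 nuclear counts and 6 level differences between the genomes, 185 stayed within 1.5 times the count or 1 SD of the level. Counts took calls in both directions together, so a turn of direction did not count as a change. The nuclear counts in Npm1c and Flt3-ITD under the median of ratios are therefore among the 185, although their direction turned as described above. With the nuclear OXPHOS genes set level, 26 nuclear members were called in Npm1c, and with no filter 2 mitochondrial genes in Flt3-ITD. As a ratio of summed RPKM the level difference became 0.80 (DM against WT), 0.46 (DM against Flt3-ITD), -0.27 (neutrophils) and 0.044 (DM against Npm1c, turned). For neutrophils it was -0.41 with unfiltered nuclear members and -0.65 over the 5 mitochondrial genes outside the copied stretch. Leaving out 1 library gave, in the order Npm1c, Flt3-ITD, DM, DM against Npm1c, DM against Flt3-ITD and neutrophils, 10 to 12, 0 to 9, 4 to 5, 7 to 10, 4 to 8 and 13 mitochondrial genes, and 15 to 26, 1 to 44, 63 to 68, 48 to 57, 54 to 72 and 73 nuclear ones. The level differences then ran from 0.70 to 0.89, 0.21 to 0.56, 0.50 to 0.63, -0.32 to -0.13, 0.0052 to 0.36 and -0.38 to -0.32. The cause of these moves was not tested.

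Of 1704 recomputed values of single genes, 1521 kept the side of the threshold, 112 no longer passed, 47 newly passed and 24 turned. A turn was counted only where the gene passed in the main fit or the alternative. The 1521 may therefore include changes of direction in genes that passed in neither. By the median of ratios Uqcrb (0.11) and mt-Nd1 (0.0085) turned in DM against WT, and Cox7a2l (0.18) in neutrophils. With the nuclear OXPHOS genes set level, a scale on which nuclear members centre on 0 by construction, DM against WT turned for Atp5g2 (0.051), Cox4i1 (0.16), Cox6a1 (0.068), Cox6b1 (0.046), Uqcrb (0.30), mt-Atp6 (0.38), mt-Co3 (0.27) and mt-Nd1 (0.20). There mt-Nd5 (0.062) and mt-Nd6 (0.096) turned against Npm1c, and mt-Cytb (0.34) and mt-Nd2 (0.082) against Flt3-ITD. In neutrophils Cox4i1 (0.19), Cox6a1 (0.007), Cox6b1 (0.23), Cox7a2 (0.40), Cox7a2l (0.66), Cox8a (0.43), Ndufb9 (0.28), mt-Co1 (0.22) and mt-Co2 (0.15) turned.

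With the replicate number as a replicate block, 12, 4, 5, 9, 6 and 13 mitochondrial and 33, 14, 70, 58, 60 and 73 nuclear members were called, in the same order. The labels do not say that a number marks a shared animal or day. Correlations of same-numbered deviations between HSPC groups ran from -0.117 to 0.0314. They show no sign of pairing, but cannot exclude one of small effect. Precision is limited by 2 libraries a group, and for mt-Nd4l by 2 to 56 reads a library.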
